A study of Mus musculus with 15 samples.

Results

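The genes described are 49 listed mouse genes of DNA replication and deoxynucleotide synthesis, followed in mouse dental mesenchymal cells (mDMCs). A gene was taken as a member where an Ensembl transcript in the expression table mapped to it, which held for 48 of the 49 genes and left only Rfc1 unmatched. The table holds 12089 transcripts, and all 48 members were among the 12079 that passed a low minimum and were tested. mDMCs are single cells digested from the dental mesenchyme of the mandibular first molar of ICR mouse embryos at embryonic day 14.5, after the epithelium had been taken off. RNA-seq covered freshly isolated cells (0 h, 3 libraries), cells kept in DMEM with fetal bovine serum for 12 h (2 libraries), 24 h (3), 36 h (3) and 48 h (3), and undissociated dental mesenchyme (tissue, 1 library). The labels name no genetic modification in any group. They do not say whether replicates came from separate isolations, so p-values measure only the spread between these libraries, which may be technical. The question behind the series is how mDMCs change as they are cultured, and whether they keep their power to induce a tooth.

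Chromosome replication starts at origins marked by the origin recognition complex (ORC). Cdc6 and Cdt1 then load the ring-shaped MCM helicase, and Cdc45, the GINS complex and Mcm10 turn it on. Primase and DNA polymerases alpha, delta and epsilon copy the strands, held in place by the PCNA clamp and its loader, replication factor C, while RPA covers single strands and Fen1 and Lig1 join the fragments of the lagging strand. Ribonucleotide reductase, thymidylate synthase and thymidine kinase supply the deoxynucleotides. Many of these genes are transcribed together ahead of S phase under the E2F transcription factors, and the dental mesenchyme of the embryonic molar is a proliferating tissue.

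The 5′ sequences of the members were examined for the letters of E2F sites. The words TTTGGCGC, TTTCCCGC, TTTGCCGC and TTTCGCGC were searched on both strands in RefSeq promoter windows (GRCm38.p6) of 250 bases before to 50 after a gene's start, with overlapping matches kept. The CCAAT box was searched in the same way. Of the 48 members, 41 had a window, and Gins1, Gins2, Gins4, Mcm4, Pole, Prim2 and Rfc2 had none. An E2F word stood in 17 of the 41 members (41.5%), against 4.86% of the 9279 genes of the expression table with a window and 2.6% of all 27025 genes. The CCAAT box was present in 26 of the 41 members (63.4%), against 43.6% of the genes of the table and 41.1% of all genes. The 120 bases shown for each of 7 members lie before the RefSeq start, on the gene's strand, with the E2F words and CCAAT (or ATTGG, its reverse) in capitals. Mcm6, Dtl, Mcm5 and Cdc6 are shown as members that ended lower in culture and hold an E2F word, Orc1 as one that ended higher and holds one, and Rrm1 and Rrm2 as ones that ended higher and hold none.
Mcm6: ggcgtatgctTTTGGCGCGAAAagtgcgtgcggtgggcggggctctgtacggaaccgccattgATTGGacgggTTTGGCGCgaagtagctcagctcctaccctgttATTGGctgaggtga
Dtl: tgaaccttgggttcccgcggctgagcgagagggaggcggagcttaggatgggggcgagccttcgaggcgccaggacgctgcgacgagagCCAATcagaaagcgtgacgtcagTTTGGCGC
Mcm5: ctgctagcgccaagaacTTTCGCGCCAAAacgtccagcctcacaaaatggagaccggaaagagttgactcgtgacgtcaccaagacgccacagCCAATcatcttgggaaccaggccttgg
Cdc6: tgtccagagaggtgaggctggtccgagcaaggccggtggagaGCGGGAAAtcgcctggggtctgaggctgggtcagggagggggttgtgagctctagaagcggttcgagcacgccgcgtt
Orc1: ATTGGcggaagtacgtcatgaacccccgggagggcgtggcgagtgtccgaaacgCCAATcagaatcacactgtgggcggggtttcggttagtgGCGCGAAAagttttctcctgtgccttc
Rrm1: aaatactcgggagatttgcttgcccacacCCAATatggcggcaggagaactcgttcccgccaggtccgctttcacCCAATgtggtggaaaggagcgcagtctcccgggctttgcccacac
Rrm2: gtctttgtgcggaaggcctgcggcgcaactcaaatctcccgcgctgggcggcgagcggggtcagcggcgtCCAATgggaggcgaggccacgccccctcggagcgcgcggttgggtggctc
The Mcm6 stretch spans chr1:128359706-128359825 and the Dtl stretch chr1:191575545-191575664, both on the minus strand. On the plus strand are the stretches of Mcm5 (chr8:75109339-75109458), Cdc6 (chr11:98907971-98908090), Orc1 (chr4:108579334-108579453), Rrm1 (chr7:102441575-102441694) and Rrm2 (chr12:24708134-24708253). The Mcm6 stretch holds 3 E2F words, a pair of which overlap, and in Mcm5 a pair on opposite strands overlap as well. E2F words were in 13 of the 30 members with a window that were lower at 48 h than at 0 h, in 1 of the 6 that were higher (Orc1), and in 3 of the 5 that were not called. By role, the words were in 6 of 7 licensing and MCM genes and in 0 of 4 genes of deoxynucleotide synthesis. These are matches of letters, and no match says only that the words are not in this window.

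Values are the scores of the deposited table, written as whole numbers on a normalized scale that gives all 15 libraries the same median of 721 and the same largest value of 127101. Depth is therefore unknown, and levels can be compared between libraries for one gene but not between genes. Values of the members ran from 91 to 11082. Each fold change is a difference of log2(value + 1) from limma, fitted to the 14 cell libraries with 1 mean per time point, and a gene is called higher or lower where its p-value, adjusted over all 12079 transcripts by the Benjamini-Hochberg method, was below 0.05.

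**Figure D1:**
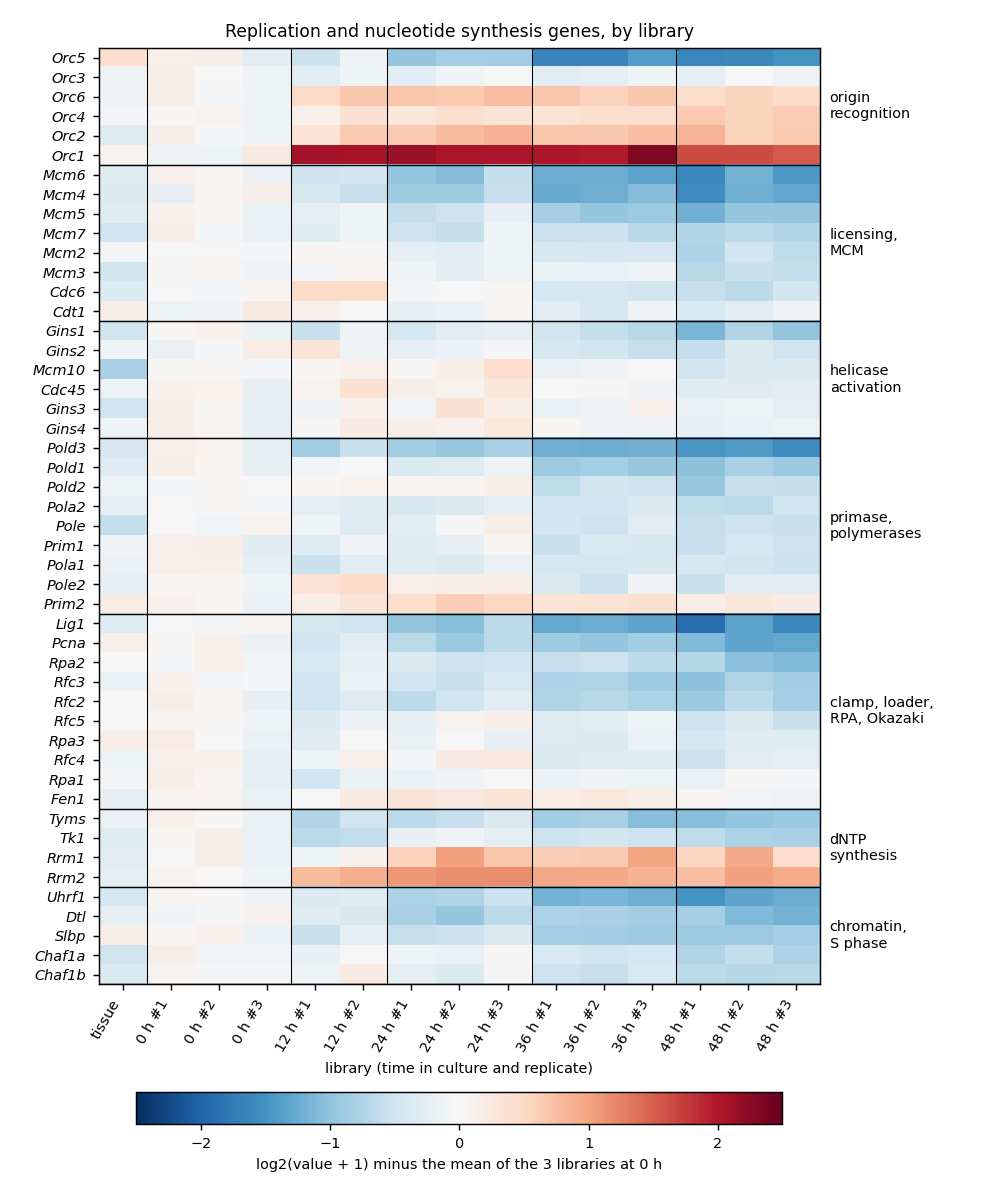
Expression of the 48 members in the tissue and the 14 cell libraries, each as log2(value + 1) minus the mean of the 3 libraries at 0 h (blue lower, red higher; rows grouped by role, columns by time in culture). Most rows turn blue from left to right, while Orc1, Orc2, Orc4, Orc6, Prim2, Rrm1 and Rrm2 are red at 48 h.

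Most replication genes fell during culture, and a small group rose. At 48 h, 35 of the 48 members (72.9%) were lower than at 0 h, 7 were higher and 6 were not called, while 34.0% of all transcripts tested were lower and 37.1% higher. The median difference of the members was −0.586 on the log2 scale, and that of all transcripts was 0.031. The largest falls were those of Lig1, Orc5, Pold3, Mcm6 and Mcm4, and the largest rise was that of Orc1. The libraries of 48 h lay wholly below those of 0 h for 35 members and wholly above for 7, against 34.6% and 37.3% of all transcripts.

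The fall was not even over time. Relative to 0 h, the members' median difference was −0.164 for the 12 h cells and −0.142 for the 24 h cells, so it did not deepen between these times. It was −0.43 for the 36 h cells and −0.586 for the 48 h cells. At 12 h, 15 members were lower and 8 higher than at 0 h, which is 31.2% and 16.7% of the members, where 28.3% of all transcripts were lower and 29.9% higher. At 24 h, 19 were lower and 8 higher, with 31.8% and 35.0% of all transcripts. At 36 h, 32 were lower and 7 higher, where the background was 34.0% and 36.0%. The members' share of falls was 31.2% at 12 h, 39.6% at 24 h and 66.7% at 36 h, so that it lay near the background at 12 h and 24 h and above it at 36 h. The counts of 12 h rested on single libraries: falls numbered 7 without replicate 1 of 12 h, and rises 5 without replicate 2 of 12 h.

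The study's own rule was a change above 2-fold with a p-value below 0.05, and it was applied here to unadjusted p-values of limma. With it, 9 members were lower at 48 h than at 0 h (Lig1, Orc5, Pold3, Mcm6, Mcm4, Uhrf1, Pcna, Mcm5 and Dtl) and 1 was higher (Orc1). These are 18.8% and 2.08% of the members, set against 15.9% and 16.2% of all transcripts. At 36 h the rule gave 6 lower and 1 higher, with 15.6% of all transcripts in either direction. At 24 h it gave 0 lower and 2 higher (Orc1 and Rrm2), against 14.2% and 13.8%, and at 12 h 0 lower and 1 higher (Orc1), against 12.1% and 12.2%. Most of the 35 members called lower at 48 h thus fell by less than 2-fold.

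The 0 h cells and the tissue also held RNA of other cells. The summed value of blood and macrophage markers (6 of 10 listed genes with a row) ranged from 67756 to 116477 at 0 h and was 115026 in the tissue, from 774 to 914 at 12 h and from 305 to 386 at 48 h. Endothelial markers (6 of 6) summed to between 7392 and 8718 at 0 h and between 492 and 861 at 48 h. Epithelial markers (7 of 8) summed to 12774 in replicate 1 of 0 h, which stood apart from the 1344 and 1559 of replicates 2 and 3, to between 2256 and 2742 at 12 h and to between 322 and 1221 at 48 h. Without replicate 1 of 0 h, 32 members were lower and 7 higher at 48 h than at 0 h. No marker was at 0 in all libraries of a group. The 10 markers of dental mesenchyme all had a row with values in every group, and their sum ranged from 127984 to 150763 at 0 h and from 131938 to 138533 at 48 h, but single markers differed more: the mean of Vim, a mesenchymal filament gene, went from 31240 at 0 h to 70530 at 48 h. The other 9 markers had a lower mean at 48 h than at 0 h: that of Pdgfra went from 16450 to 2546, that of Pax9 from 4619 to 899 and that of Lhx6 from 4048 to 1326. The part of the other cells, and of the changing mesenchymal markers, in the differences from 0 h was not tested. In such bulk samples, fewer cells of a type and less RNA per cell cannot be told apart.

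**Figure D2:**
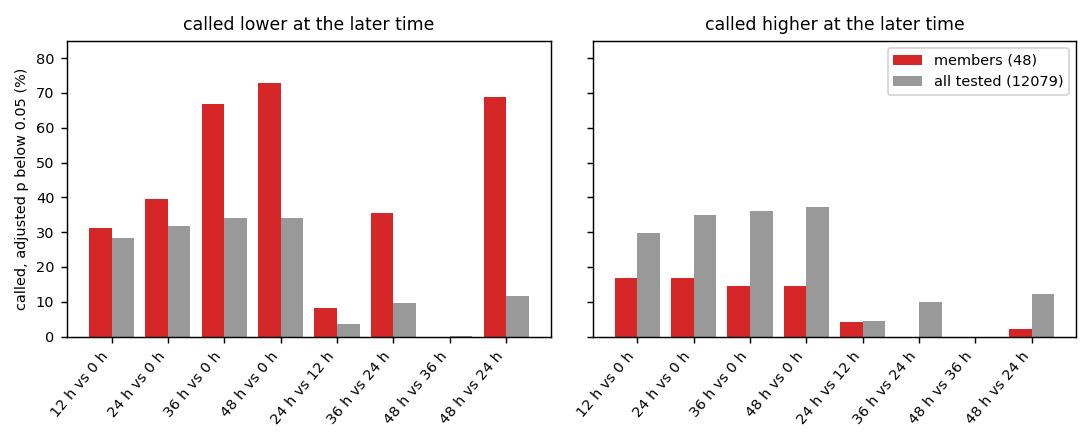
Share of the 48 members (red) and of all 12079 transcripts tested (grey) called lower (left) or higher (right) at the later time of each comparison, at an adjusted p-value below 0.05. Members were called lower in 72.9% of cases for 48 h against 0 h and in 68.8% for 48 h against 24 h, above the grey bars of 34.0% and 11.7%.

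The fall went on between 24 h and 48 h. From 24 h to 48 h, 33 members were lower (68.8%) and 1 was higher, against 11.7% and 12.2% of all transcripts, and the median difference of the members was −0.455. At 24 h the blood and macrophage markers summed to between 589 and 939, the endothelial ones to between 397 and 631 and the epithelial ones to between 1021 and 2139, and the part of any of them in this fall was not tested. The libraries of 48 h lay wholly below those of 24 h for 41 members and wholly above for 1, against 22.1% and 21.4% of all transcripts. The largest falls over this interval were those of Pold2, Lig1, Orc5 and Uhrf1, and the only rise was that of Orc4, by 0.27 ± 0.08 (SE; limma, Benjamini-Hochberg adjusted p = 0.0294). The rise of Orc4 lost its call without replicate 1 or 3 of 24 h or replicate 1 or 3 of 48 h, while the count of falls stayed between 26 and 33 whichever library was left out.

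By steps, 2 members rose and 4 fell from 12 h to 24 h (background 4.59% and 3.67%), 0 rose and 17 fell from 24 h to 36 h (10% and 9.64%), and none was called from 36 h to 48 h (0.0% and 0.0248%) by limma, where 1 was higher (Orc4) and 14 were lower at an unadjusted p-value below 0.05, as were 6.4% and 6.99% of all transcripts. Over that last step the median of the members was −0.13. The count of 17 falls from 24 h to 36 h depended on single libraries: it was 6 without replicate 3 of 24 h, 9 without replicate 2 of 24 h, 8 without replicate 1 of 36 h and 7 without replicate 2 of 36 h. From 12 h to 24 h, Rrm1 and Tk1 were the rises and Cdc6, Orc5, Dtl and Uhrf1 the falls. The rises were lost without replicate 1 of 12 h or replicate 2 of 24 h, and none of these 6 calls was made where only the libraries of 12 h and 24 h were fitted.

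Subunits of ORC, the complex that marks origins, went in opposite directions. The values of Orc1 and Orc5 belong to transcripts not annotated as protein coding. At 48 h, 4 of the 6 subunits were higher than at 0 h (Orc1, Orc2, Orc4 and Orc6), Orc5 was lower and Orc3 was not called. Of all transcripts, 37.1% were higher and 34.0% lower. Orc1, the subunit whose amount cycles with S phase, read 93, 91 and 117 at 0 h and 106 in the tissue, then 426 and 421 at 12 h, 446, 412 and 409 at 24 h, 405, 397 and 502 at 36 h and 311, 311 and 291 after 48 h. Every cultured library lay above every library of 0 h. The difference was 2.08 at 12 h and 1.60 ± 0.12 at 48 h on the log2 scale (SE; limma, adjusted p = 1.46e-07), and Orc1 then fell from 24 h to 48 h by 0.47 (adjusted p = 0.016), a call lost without replicate 1 of 24 h or replicate 3 of 48 h.

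Orc5 had the opposite course. It read 4116, 4150 and 3093 at 0 h, 2601 and 3477 at 12 h, 1928, 2080 and 2055 at 24 h, 1198, 1191 and 1428 at 36 h, 1213, 1229 and 1327 at 48 h and 5003 in the tissue. From 24 h on, all libraries were below those of 0 h, and at 12 h the groups overlapped. The difference at 48 h was −1.58 ± 0.13 (limma, adjusted p = 2.45e-07). Orc2 read 1255, 1097 and 1050 at 0 h and 2029, 1656 and 1779 after 48 h, and was higher by 0.68 ± 0.10 (limma, adjusted p = 6.51e-05) with no overlap. Orc4 read 1278, 1338 and 1150 at 0 h and 1965, 1852 and 1950 after 48 h, and Orc6 read 895, 777 and 752 at 0 h, 1297, 1274 and 1373 at 24 h and 1097, 1193 and 1101 after 48 h. Neither overlapped between 0 h and 48 h, and their differences were 0.62 for Orc4 and 0.49 for Orc6. Orc3, with 1153, 1039 and 953 at 0 h and 891, 1051 and 962 after 48 h, overlapped between the times, and its difference of −0.11 was not called.

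The licensing and helicase genes fell, and no member of this group was higher at 48 h. Of 8 genes, 7 were lower at 48 h than at 0 h and Cdt1 was not called, with a median of −0.667. Among all transcripts, 34.0% were lower and 37.1% higher. Mcm6 and Mcm4, subunits of the MCM ring, had the largest falls. Mcm6 read 7872, 7568 and 6681 at 0 h, 5144 and 5259 at 12 h, 3708, 3463 and 4849 at 24 h, 3108, 3094 and 2928 at 36 h, 2417, 3252 and 2708 at 48 h and 5959 in the tissue. Mcm4 read 4818, 5781 and 6092 at 0 h, 4187 and 3736 at 12 h, 2975, 2975 and 3700 at 24 h, 2322, 2364 and 2627 at 36 h and 1872, 2365 and 2262 after 48 h. For both genes all cultured libraries were below all libraries of 0 h, and the groups of 36 h and 48 h overlapped. At 48 h the difference of Mcm6 from 0 h was −1.41 ± 0.13 (adjusted p = 6.53e-07) and that of Mcm4 −1.36 ± 0.12 (adjusted p = 5.09e-07), both from limma with Benjamini-Hochberg adjustment.

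The other ring subunits had smaller differences. Mcm5 read 6772, 6615 and 5588 at 0 h, 5317 and 5880 at 12 h, 4163, 4394 and 5462 at 24 h, 3522, 3208 and 3367 at 36 h and 2752, 3227 and 3191 after 48 h. Its groups of 0 h and 12 h overlapped, and from 24 h on all libraries were below 0 h. Mcm7 read 6101, 5388 and 4969 at 0 h, 3811, 3617 and 5082 at 24 h and 3291, 3413 and 3272 after 48 h, and Mcm2 read 4858, 4894 and 4753 at 0 h, 4136, 3957 and 4515 at 24 h and 2839, 3531 and 3131 after 48 h. At 24 h Mcm7 still reached into the range of 0 h through replicate 3, and Mcm2 did not. The differences from 0 h to 48 h were −1.05 for Mcm5, −0.72 for Mcm7, −0.62 for Mcm2 and −0.61 for Mcm3, all called. Mcm3 was called lower at 48 h only, with 4680, 4791 and 4262 at 0 h, 4048, 4074 and 4163 at 36 h and 2827, 3123 and 3043 after 48 h. The libraries of 36 h still came close to those of 0 h, and those of 48 h were far below. Differences between subunits in their fall were not tested.

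Cdc6, the loader that binds ORC before the MCM ring, rose first and fell later. It read 967, 958 and 1007 at 0 h, 1355 and 1365 at 12 h, 963, 987 and 993 at 24 h, 721, 734 and 711 at 36 h, 654, 620 and 710 at 48 h and 766 in the tissue. Both libraries of 12 h stood above all others, those of 24 h overlapped with those of 0 h, and those of 36 h and 48 h were below. Cdc6 was higher at 12 h by 0.48 (limma, adjusted p = 0.000189), and the difference between 12 h and 24 h was −0.47 (limma, adjusted p = 0.00385). At 48 h the difference from 0 h was −0.56. Cdt1, the partner of Cdc6, read 839, 860 and 1067 at 0 h and 708, 748 and 862 after 48 h, which overlap, and its difference of −0.25 was not called, though it was with the replicate number as a block and without replicate 3 of 48 h.

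**Figure D3:**
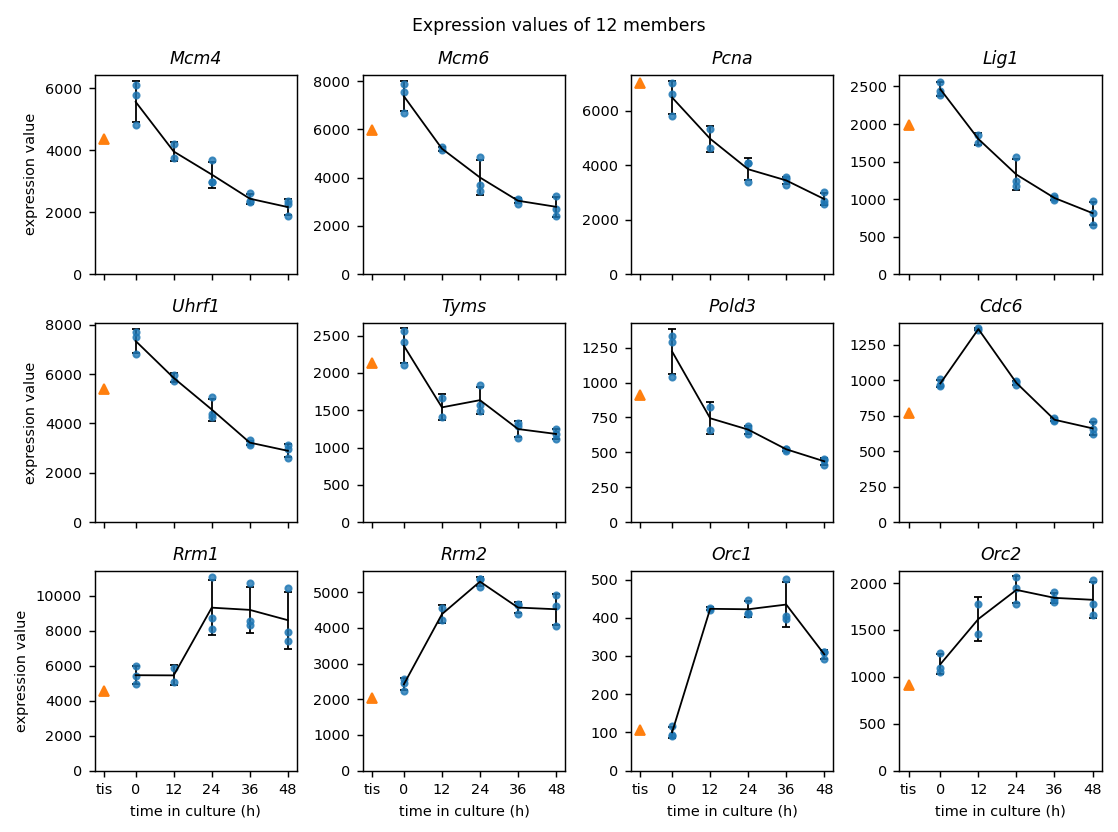
Expression value against hours in culture for 12 members, with 1 point per library, the line through the means with SD, and a triangle for the tissue. Orc1, Orc2, Rrm1 and Rrm2 end above their 0 h level, Cdc6 peaks at 12 h, and Mcm4, Mcm6, Pcna, Lig1, Uhrf1, Tyms and Pold3 fall.

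Of the 6 genes that activate the helicase, none was called against 0 h at 12 h or at 24 h by limma. Gins1 had an unadjusted p of 0.0446 at 12 h and of 0.0396 at 24 h, and was called lower at both times with the replicate number as a block and without replicate 3 of 0 h. Of the 6, 4 were lower at 48 h (Gins1, Gins2, Mcm10 and Cdc45), with a median of −0.346, where 34.0% of all transcripts were lower. Gins1, a subunit of the GINS complex, read 515, 542 and 457 at 0 h, 342 and 461 at 12 h and 227, 297 and 253 after 48 h, and fell by 0.96 to 48 h, with no overlap between 0 h and 48 h. Cdc45, the helicase's other partner, read 1090, 1076 and 888 at 0 h, 1126, 1081 and 1227 at 24 h and 817, 810 and 837 after 48 h, so that only the 48 h libraries lay below the rest. Gins2 read 1155, 1276 and 1471 at 0 h and 860, 1001 and 912 after 48 h, and Mcm10, which helps to open the origin, read 1076, 1072 and 1011 at 0 h, 1076, 1163 and 1401 at 24 h and 764, 825 and 823 after 48 h. Both were lower at 48 h with no overlap, Gins2 at −0.49 and Mcm10 at −0.39. Gins3 and Gins4 were both at −0.17 and not called.

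Primase and polymerase genes ended lower with 1 exception. At 48 h, 8 of 9 were lower than at 0 h, Prim2 was higher, and the median was −0.55. Of all transcripts, 34.0% were lower and 37.1% higher. Pold3, an accessory subunit of polymerase delta, read 1332, 1292 and 1041 at 0 h, 663 and 826 at 12 h, 668, 632 and 690 at 24 h, 528, 512 and 528 at 36 h, 445, 455 and 410 at 48 h and 910 in the tissue. Its value was already clear of 0 h at 12 h and was lowest at 48 h, where the difference from 0 h was −1.47 ± 0.11 (limma, adjusted p = 9.29e-08). Pold2, the second subunit of polymerase delta, held level for longer, at 1075, 1129 and 1100 at 0 h and 1133, 1140 and 1224 after 24 h, before 706, 800 and 770 at 36 h and 572, 738 and 732 after 48 h. The libraries of 36 h and 48 h lay below all earlier ones, and the difference between 24 h and 48 h was −0.78 (limma, adjusted p = 0.000232).

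Pold1, the catalytic subunit of polymerase delta, read 2326, 2159 and 1831 at 0 h, 1644, 1667 and 1927 at 24 h, 1122, 1161 and 1092 at 36 h and 1033, 1199 and 1104 after 48 h. It overlapped with 0 h at 24 h and not afterwards, and its difference at 48 h was −0.92.

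Pole2, an accessory subunit of polymerase epsilon, also rose first and fell later. It read 461, 478 and 424 at 0 h, 587 and 620 at 12 h and 307, 371 and 378 after 48 h, with a difference from 0 h of 0.41 at 12 h (limma, adjusted p = 0.0184) and of −0.37 at 48 h. The first call was lost without replicate 2 of 12 h and the second without replicate 1 of 48 h. Prim1 and Prim2, the catalytic and the large subunit of primase, parted. Prim2 read 880, 851 and 740 at 0 h, 1112, 1258 and 1183 at 24 h and 935, 998 and 950 after 48 h, and was higher at 48 h by 0.23 ± 0.08 (limma, adjusted p = 0.0277). That call was lost without replicate 3 of 0 h, replicate 2 of 48 h or replicate 3 of 48 h, and in a fit of only the libraries of 0 h and 48 h. Prim1 read 1215, 1248 and 907 at 0 h and 742, 819 and 774 after 48 h, with no overlap, and was lower.

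Among the clamp, clamp loader, RPA and lagging-strand genes, 8 of 10 were lower at 48 h than at 0 h and 0 were higher, with a median of −0.649. The shares of all transcripts were 34.0% lower and 37.1% higher. Lig1, the ligase that seals lagging-strand fragments, had the largest fitted fall of all members. It read 2446, 2382 and 2564 at 0 h, 1858 and 1743 at 12 h, 1237, 1178 and 1565 at 24 h, 1014, 1042 and 989 at 36 h, 661, 970 and 809 at 48 h and 1983 in the tissue. Each time point lay below the one before it without overlap, and the difference at 48 h was −1.61 ± 0.13 (limma, adjusted p = 2.05e-07). Of all transcripts, 32.6%, 18.6%, 25.1% and 12.2% fell without overlap at these steps. No step of Lig1 after 12 h was called in the fit of all 14 libraries (limma, adjusted p = 0.0777, 0.06 and 0.288).

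Pcna, the sliding clamp, read 6617, 7036 and 5823 at 0 h, 4634 and 5320 at 12 h, 4076, 3393 and 4100 at 24 h, 3480, 3292 and 3566 at 36 h, 3014, 2584 and 2680 at 48 h and 7036 in the tissue. Its 0 h libraries lay above all cultured ones, and the difference at 48 h was −1.23 ± 0.10 (limma, adjusted p = 2.49e-07). The clamp loader subunits Rfc2, Rfc3, Rfc4 and Rfc5 were all lower at 48 h. Fen1, the flap nuclease that works beside Lig1, was called higher at 24 h only. It read 1905, 1928 and 1619 at 0 h, 2264, 2129 and 2258 at 24 h and 1905, 1719 and 1652 after 48 h. All libraries of 24 h lay above those of 0 h, the libraries of 48 h overlapped with those of 0 h, and the difference at 48 h was −0.05. Rpa1, the large subunit of RPA, read 5804, 5449 and 4396 at 0 h and 4599, 5305 and 5013 after 48 h, which overlap. Rpa2, the middle subunit, read 1890, 2125 and 1854 at 0 h, 1515, 1372 and 1378 at 24 h and 1185, 946 and 911 after 48 h, and fell by 0.95 with no overlap.

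The enzymes of deoxynucleotide synthesis went in both directions. Both subunits of ribonucleotide reductase were higher at 48 h than at 0 h, and both thymidylate enzymes were lower. Of all transcripts, 37.1% were higher and 34.0% lower. Rrm2, the small subunit, read 2577, 2446 and 2235 at 0 h, 4206 and 4560 at 12 h, 5142, 5371 and 5371 at 24 h, 4631, 4680 and 4394 at 36 h, 4048, 4915 and 4600 at 48 h and 2041 in the tissue. All cultured libraries lay above all libraries of 0 h, by 0.86 at 12 h and 0.90 ± 0.08 at 48 h (limma, adjusted p = 6.94e-07). Rrm1, the large subunit, rose later: it read 5430, 5983 and 4930 at 0 h, 5039 and 5838 at 12 h, 8100, 11082 and 8743 at 24 h, 8295, 8532 and 10718 at 36 h, 7913, 10453 and 7414 at 48 h and 4527 in the tissue. The 12 h libraries fell within the range of 0 h and those from 24 h on were all above it, with a difference of 0.65 ± 0.16 at 48 h (limma, adjusted p = 0.00231).

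Tyms, thymidylate synthase, read 2566, 2417 and 2105 at 0 h, 1415 and 1663 at 12 h, 1494, 1576 and 1836 at 24 h, 1284, 1336 and 1127 at 36 h and 1122, 1182 and 1245 after 48 h. Its cultured libraries were all below 0 h, and the difference at 48 h was −0.99 ± 0.11 (limma, adjusted p = 2.91e-06). Tk1, thymidine kinase of the salvage route, dipped and came back before it fell again. It read 2278, 2472 and 2015 at 0 h, 1412 and 1471 at 12 h, 1966, 2109 and 1921 at 24 h, 1572, 1628 and 1572 at 36 h and 1448, 1297 and 1279 after 48 h. The libraries of 24 h overlapped with those of 0 h and were above those of 12 h by 0.47 (limma, adjusted p = 0.00994), and at 48 h the difference of Tk1 from 0 h was −0.75 ± 0.08 (limma, adjusted p = 3.95e-06).

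All 5 genes of replication-coupled chromatin and S phase control were lower at 36 h and at 48 h than at 0 h, as were 34.0% of all transcripts at either time. Their median of −0.889 at 48 h was the lowest of the 7 role groups. Uhrf1, which brings DNA methylation to newly copied strands, read 7714, 7499 and 6796 at 0 h, 5713 and 5973 at 12 h, 4247, 4375 and 5074 at 24 h, 3216, 3313 and 3149 at 36 h, 2614, 2954 and 3116 at 48 h and 5380 in the tissue. Each time point again lay below the one before it, and the difference at 48 h was −1.34 ± 0.09 (limma, adjusted p = 3.53e-08). The step of Uhrf1 from 36 h to 48 h was not called (limma, adjusted p = 0.469). Dtl, the adaptor that has Cdt1 degraded in S phase, read 1591, 1645 and 1819 at 0 h, 955, 864 and 1049 at 24 h and 944, 780 and 746 after 48 h, and fell by 1.04 to 48 h. Slbp, which binds histone mRNA, read 4678, 4912 and 4079 at 0 h, 3067, 3133 and 3512 at 24 h and 2421, 2404 and 2536 after 48 h, and fell by 0.89. Neither overlapped with 0 h at 24 h or 48 h. Chaf1a and Chaf1b, subunits of the CAF-1 histone chaperone, were lower from 36 h on.

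Over the whole course, 13 members were lower than at 0 h at all 4 times (Dtl, Lig1, Mcm4, Mcm6, Pcna, Pola1, Pola2, Pold3, Rfc2, Rfc3, Slbp, Tyms and Uhrf1), a course that 21% of all transcripts took. Of their calls at 12 h, those of Mcm6, Pcna, Pola1, Rfc2, Rfc3, Slbp and Uhrf1 were lost without replicate 1 of 12 h and those of Dtl, Lig1, Mcm4 and Pola2 without replicate 2 of 12 h. A further 6 were lower from 24 h on (Mcm2, Mcm5, Mcm7, Orc5, Pold1 and Rpa2; 5.41% of all transcripts), 10 from 36 h on (Chaf1a, Chaf1b, Gins1, Gins2, Pold2, Pole, Prim1, Rfc4, Rfc5 and Rpa3; 3.85%) and 3 at 48 h only (Cdc45, Mcm10 and Mcm3; 1.53%). At 24 h the call of Mcm2 was lost with the block, in a fit of only the compared times and without any one library of 0 h or replicate 1 or 2 of 24 h, and those of Pold1 and Pola1 in that fit and without replicate 1 or 2 of 0 h or of 24 h, while that of Mcm7 was lost without replicate 2 of 24 h. At 36 h the calls of Rfc4, Rfc5, Rpa3 and Pole2 were each lost without replicate 1 or 2 of 0 h or of 36 h, and that of Rfc4 also without replicate 3 of 36 h. Rfc5 also lost its call with either other filter or a pseudocount of 10, Rpa3 with the block, and Rpa3 and Pole2 in a fit of only 0 h and 36 h. At 48 h the call of Rfc4 was lost without replicate 1 or 2 of 0 h or replicate 1 of 48 h, that of Cdc45 without replicate 1 or 2 of 0 h and that of Rpa3 without replicate 1 of 0 h. Orc1, Orc2, Orc4, Orc6, Prim2 and Rrm2 were higher at all 4 times (23.0% of all transcripts) and Rrm1 from 24 h on (5.43%). At 12 h the calls of Orc4 and Prim2 were lost without replicate 3 of 0 h, without replicate 2 of 12 h and in a fit of only 0 h and 12 h, and that of Prim2 also without replicate 2 of 0 h and with the block. Cdc6 and Pole2 were higher at 12 h and lower from 36 h on, Fen1 was higher at 24 h only, Rpa1 was lower at 12 h only, Tk1 was lower at 12, 36 and 48 h, and Cdt1, Gins3, Gins4 and Orc3 were called at no time (14.1% of all transcripts) by limma without a block. With the block Cdt1 was called lower at 36 h and 48 h, and without replicate 3 of 0 h Gins4 was called lower at 48 h and Orc3 at 36 h. The call of Rpa1 at 12 h was lost without replicate 1 or 2 of 0 h or replicate 1 of 12 h. It was also lost in a fit of only 0 h and 12 h. The mean was highest at 0 h for 26 members and lowest at 48 h for 38, with 36.5% and 19.8% of all transcripts.

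Replicates of the members were closer to each other than those of all transcripts, a background that was not matched for expression level. The median SD of log2 values was 0.104 at 24 h and 0.105 at 48 h, with 0.132 and 0.142 over all transcripts, and 0.0641 at 36 h with 0.0909. The members with the widest spread at 24 h were Mcm7 (SD 0.264, with 3811, 3617 and 5082), Mcm6 (0.257) and Rrm1 (0.236). At 48 h they were Lig1 (0.276), Rrm1 (0.263) and Mcm6 (0.216).

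At 24 h the spread ran in one direction over many genes. Replicate 3 was the highest of the 3 libraries for 36 of the 48 members, where it was the highest for 39.8% of all transcripts, and its median deviation from the group mean was 0.0999 on the log2 scale, with 0.014 over all transcripts. Replicate 1 was the lowest for 27 members, with 40.3% of all transcripts, and its median deviation was −0.0683. At 48 h the lean was smaller: replicate 1 was the lowest for 28 members (38.3% of all transcripts), replicate 2 the highest for 26 (29.9%), and their median deviations were −0.0586 and 0.0515. At 0 h, replicate 3 was the lowest for 37 members (44.0%), with a median deviation of −0.128. Members of one library share its RNA and are not independent readings of it.

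**Figure D4:**
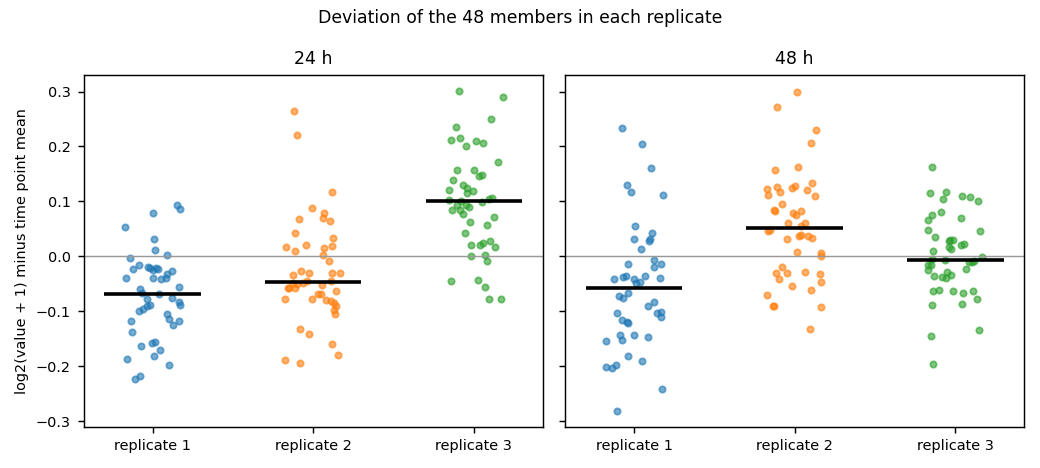
Deviation of each of the 48 members from its group mean on the log2 scale, for the 3 replicates of 24 h and of 48 h, with 1 point per gene. The points of replicate 3 at 24 h lie mostly above 0 (median 0.0999), and those of replicate 1 lie mostly below it at 24 h and at 48 h (medians −0.0683 and −0.0586).

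The undissociated tissue has 1 library and so no replicate check against freshly isolated cells. None of the 48 members stood more than 2-fold above or below the mean of 0 h, where 2.56% and 1.22% of all transcripts did, and the median difference was −0.186 for the members and −0.015 for all transcripts. Replicate 3 of 0 h, set against the mean of the other 0 h libraries, had a median of −0.192 and lay below both for 37 members. The tissue lay below all 3 libraries of 0 h for 27 members, above all for 3 (Slbp, Prim2 and Orc5) and within their range for 18, while 32.0% of all transcripts were below and 29.7% above. The lowest was Mcm10, at 597 in the tissue and between 1011 and 1076 at 0 h, and the highest was Orc5, at 5003 in the tissue and between 3093 and 4150 at 0 h. Set against cells at 48 h, the tissue was above all 3 libraries for 35 members and below all for 11, with 40.5% and 46.1% of all transcripts.

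Other genes of the same processes were counted from lists written for this purpose. Of the 11 genes of origin firing and its control that were tested, 7 were lower and 1 was higher at 48 h than at 0 h (median −0.462), a comparison in which 34.0% of all transcripts were lower and 37.1% higher. Cdc7, the kinase that fires origins, fell by 1.22, Mcm9, a helicase of repair, fell by 1.18, and Gmnn, the inhibitor of Cdt1, fell by 0.94. Of 18 other fork genes, 10 were lower and 1 higher (median −0.344): Dna2, a nuclease, fell by 1.55, Timeless, of the fork protection complex, fell by 1.36, and Pold4, the smallest polymerase delta subunit, rose by 1.93. Of 10 other chromatin genes, 7 were lower and 1 higher (median −0.487), led by the histone chaperone Nasp at −2.08 and Cdca7 at −1.60, with Rbbp4, a CAF-1 subunit, at −1.04. Differences between these lists and the members were not tested.

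Of 29 other nucleotide synthesis genes, 12 were higher and 9 lower at 48 h than at 0 h (median 0.135), near the shares of all transcripts (37.1% and 34.0%). At 24 h 19 were higher and 6 lower (median 0.385), with 35.0% and 31.8% of all transcripts. Rrm2b, the small reductase subunit used outside S phase, read 142, 119 and 112 at 0 h and 349, 296 and 270 after 48 h, with no overlap and a rise of 1.29. Samhd1, which breaks down deoxynucleotides, rose by 1.29 and Nme1, a nucleoside diphosphate kinase, rose by 1.20.

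Most mitosis genes fell at 12 h, and many rose again by 24 h. Of 25, 17 were lower and 1 higher at 12 h than at 0 h (median −0.58), with 28.3% and 29.9% of all transcripts. From 12 h to 24 h 14 rose and 0 fell (median 0.627), with 4.59% and 3.67% of all transcripts, where the 48 replication members had 2 rises and 4 falls (median −0.0315). The difference between the lists was not tested. At 48 h, 12 were lower and 1 higher than at 0 h (median −0.239), with 34.0% and 37.1% of all transcripts. Mki67, a marker of cycling cells, was at −2.05, Ccnb2, a mitotic cyclin, at −1.70 and Top2a, topoisomerase II alpha, at −1.59. Of 25 genes of G1 and S phase control, 13 were lower and 4 higher at 48 h (median −0.483), against 34.0% and 37.1% of all transcripts. E2f2, of the E2F family, read 320, 398 and 403 at 0 h and 14, 6 and 15 after 48 h, and stood at −4.97. Ccnd2, a D-type cyclin, was at −1.34, and Rb1, which restrains E2F, rose by 1.56.

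The value of a member belongs to 1 transcript in the table, and whether it stands for that transcript or the whole gene is not stated. For 6 members that transcript is not annotated as protein coding in GENCODE (Orc1, Gins1 and Lig1 processed transcripts, and Orc5, Gins2 and Pcna with a retained intron). On the opposite strand, exons of another gene overlap those of 16 members, Orc1, Orc2, Orc4, Orc6, Lig1, Mcm7 and Tk1 among them. Counting by strand is not stated, so reads of such partners cannot be told apart. On the same strand, exons of Orc5, Pole2 and Rpa1 are overlapped by Gm15421, Gm49384 and Gm47300, so that their values are uncertain even if strand was used. Pcna and Tyms have named pseudogenes, with which their reads may be shared, and their values are uncertain to that extent. On GRCm38, the transcript of Orc1 lies at chr4:108579423-108595439 and that of Orc5 at chr5:22486485-22550304, and those of Lig1, Pcna, Mcm6 and Rrm2 lie at chr7:13277283-13311425, chr2:132249162-132250170, chr1:128331590-128359664 and chr12:24708241-24714146.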

How the data were processed

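RNA-seq libraries were grouped by the labels into 0, 12, 24, 36 and 48 h of culture and 1 tissue library. The authors trimmed adaptors, aligned reads to the mouse transcriptome (mm10, Ensembl) with bowtie, used RSEM for expression estimates and DESeq2 for calls (p-value below 0.05, fold change above 2). The submitters' processing notes give RSEM 1.1.21, and the study's methods name a later version. The deposited table holds whole-number scores, brought to one distribution (library totals 21357605 to 21365980) by a step not given in the sources used here. Neither depth nor a change in total RNA can be seen, and fold changes of log2(score + 1) understate changes of low genes.

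Transcript identifiers were matched to GENCODE vM21 (GRCm38), and 11973 of 12089 matched 11960 genes. Transcripts with at least 1 ppm of the total in at least 2 of the 14 cell libraries were tested with limma 3.58.1 (R 4.3.3, eBayes with trend). The tissue was left out of the fit. The fit was first tested on simulated data. Motifs and plots used Python 3.11.15. The members and lists were chosen with earlier results of these data known. Values by library are given for up to 3 members per role group with the largest called change at 48 h, the largest at 12 h, Mcm2 to Mcm7, Pcna, members called higher than at 0 h at any time and the 3 with the widest spread at 24 h or 48 h, and up to 3 genes are named per other list. Orc3, Cdt1, Cdc45, Prim1 and Rpa1 were added after their values were seen.

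Same-numbered libraries deviated together in all 3 pairs between 24 h and 48 h (r = 0.298, 0.2 and 0.315) and between 24 h and 36 h (0.165, 0.145 and 0.126). Between 36 h and 48 h, r was 0.083, −0.044 and 0.096. Libraries of unlike number were not compared and the labels give only the numbers, so r cannot show whether the numbers pair the libraries. The reported counts come from the fit without a block, and the block is an alternative whose counts stand in the closing section. Over all comparisons, 11 of 26 pairs had r above 0.1. Alternatives were pseudocounts of 0.1 and 10, other filters, trimmed-mean scaling, the compared time points only, the replicate block, the study's rule and each library left out. The scaling was an unweighted trimmed mean of own code.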

Additional observations from a re-analysis of the deposited data

How the results depend on the processing

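Over all settings, 209 counts stayed within 1.5 times their value and 33 did not, and 735 values of single genes kept their direction and side of the threshold, while 23 lost a call, 9 gained one and 8 changed sign. Pseudocounts of 0.1 and 10, no filter, a stricter filter and trimmed-mean scaling moved no count by over 1.5 times. Fitting only the compared time points gave 9 falls from 0 h to 12 h in place of 15, and 0 rises and 0 falls from 12 h to 24 h, a fit with fewer libraries. With the study's rule the counts of rises and falls were 1 and 0 after 12 h, 2 and 0 after 24 h, 1 and 6 after 36 h and 1 and 9 after 48 h against 0 h, and 0 and 0 for 24 h against 12 h, 36 h against 24 h and 48 h against 24 h, since it asks for a larger change.

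With one library left out, rises and falls against 0 h ranged from 5 to 9 and 7 to 18 after 12 h, 8 to 9 and 15 to 22 after 24 h, 7 to 7 and 28 to 35 after 36 h, and 6 to 7 and 32 to 36 after 48 h. They ranged from 0 to 2 and 1 to 5 for 24 h against 12 h, 0 to 0 and 6 to 16 for 36 h against 24 h, 0 to 0 and 0 to 2 for 48 h against 36 h (2 falls without replicate 1 of 48 h), and 0 to 1 and 26 to 33 for 48 h against 24 h. From 12 h to 24 h, no rise was called without replicate 1 of 12 h or replicate 2 of 24 h, and falls numbered 2 without replicate 1 or 2 of 12 h or replicate 1 of 24 h and 1 without replicate 2 of 24 h.

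The replicate block, in the 14 libraries, gave 7 rises and 17 falls at 12 h, 8 and 19 at 24 h, 7 and 32 at 36 h and 7 and 36 (Cdt1 gained) at 48 h against 0 h. It gave 2 and 3 for 24 h against 12 h (Uhrf1 lost), 0 and 0 for 48 h against 36 h, 1 rise and 32 falls for 48 h against 24 h in place of 33, with Gins2 lost, and 0 rises and 15 falls for 36 h against 24 h in place of 17, with Rfc3 and Pold3 lost. In a block fit of the compared time points only, chosen after seeing the data, 33 and 14 falls were called, with Mcm6 lost and Prim1 gained from 24 h to 48 h and Mcm10, Rfc3 and Tyms lost from 24 h to 36 h. The block moved no count of calls by over 1.5 times. Values that changed sign were uncalled differences between 12 h and 0 h. With one library left out they ranged from −0.10 (without replicate 1 of 12 h) to 0.32 for Gins2, from −0.067 (without replicate 2 of 12 h) to 0.068 for Mcm3, from −0.138 to 0.034 (without replicate 1 of 0 h) for Pold1 and from −0.108 to 0.10 (without replicate 1 of 12 h) for Rrm1. Mcm3 was −0.00123 with the replicate block and −0.012 with trimmed-mean scaling. The causes were not tested. Depth is unknown, so no counting error can be given, and the tissue has no replicate.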
